A study of Rattus norvegicus with 256 samples.

Results

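The genes of the proteasome were examined in rat organs, with attention to the 3 catalytic subunits of the immunoproteasome, Psmb8, Psmb9 and Psmb10. Members were all probesets of the RAE230_2 array that carried a single gene symbol beginning with Psma, Psmb, Psmc, Psmd or Psme and a digit, which gave 55 of 31042 probesets and 41 genes. Of these genes, 39 encode parts, activators or assembly chaperones of the proteasome, and Psmc3ip and Psme3ip1 are named for partners of such genes and encode no subunit. Psmb6 and Psme3 were not covered because their probesets carried several symbols (6 such probesets were left out), and neither Psmb11, of the thymus, nor Psma8, of the testis, had a probeset with 1 symbol.

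The tissues came from untreated rats of the Han Wistar-derived stock AlpkHsdBrlHan:WIST, 5 males and 5 females, killed with halothane, of an age that neither the labels nor the methods state. Each of the 256 arrays held RNA of 1 organ of 1 rat, 127 arrays from males and 129 from females, over 31 organs. The organs comprised 26 somatic tissues of both sexes and 5 sex-specific organs, with 2 to 5 arrays per organ and sex. All values are GCRMA log2 intensities of hybridisation signal, and a mean above 6.65 was taken as measurable expression.

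The proteasome is the protease that degrades ubiquitin-tagged proteins. Its barrel has outer rings of alpha subunits and inner rings of beta subunits, 3 of which cut, and a cap whose ATPase base unfolds substrates and whose lid removes ubiquitin. Interferon-gamma and lymphoid cells bring in Psmb8, Psmb9 and Psmb10 in place of Psmb5, Psmb6 and Psmb7, and the PA28 activator made of Psme1 and Psme2, which favour peptides that MHC class I molecules present to T cells.

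Organ labels were checked with marker genes where these were measured. Of 50 pairs of marker and organ, 49 lay above the threshold in that organ and 40 were highest there. The exception to the first was Cyp19a1, at 6.01 in the ovary. The thymus, bone marrow and epididymis had no measured marker, so their labels were not checked in this way. The spleen and lymph nodes had only Cd79b, and the aorta markers Myh11 and Acta2 were highest in the bladder. On 4 arrays the Xist and Eif2s3y values were at odds with the labelled sex (aorta male 3, bone marrow male 5, bone marrow female 2 and heart male 5). The counts of called members given below were the same without those 4 arrays. In bulk RNA, a larger share of a cell type and more RNA per cell cannot be told apart.

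Most proteasome genes were expressed in every organ. Of the 55 probesets, 40 had means above the threshold in all 31 organs, 8 in some and 7 in none, whereas 3587 of all 31042 probesets (11.6%) were above it in all organs. Organ means of the 33 subunit and chaperone genes outside the immune subunits and the activators spanned 1.01 to 3.67 log2 units from lowest to highest organ, with a median span of 2.17, against a median of 2.88 for all probesets expressed in every organ. Psmb5, the constitutive chymotrypsin-like subunit, had the narrowest span, from 10.98 in the bladder to 11.98 in the gastrocnemius. The lid subunit Psmd7 followed with a span of 1.41. The immune subunits stood at the other end, with spans of 9.06 for Psmb8, 7.91 for Psmb9 and 4.11 for Psmb10, and the 3 activators Psme1, Psme2 and Psme4 (PA200, a nuclear activator) had spans of 3.86 to 4.84. Where the mean lay below the threshold, as for Psmb8 in 9 organs, Psmb9 in 5 and Psmb10 in 4, a span measures distance from background rather than a level.

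**Figure D1:**
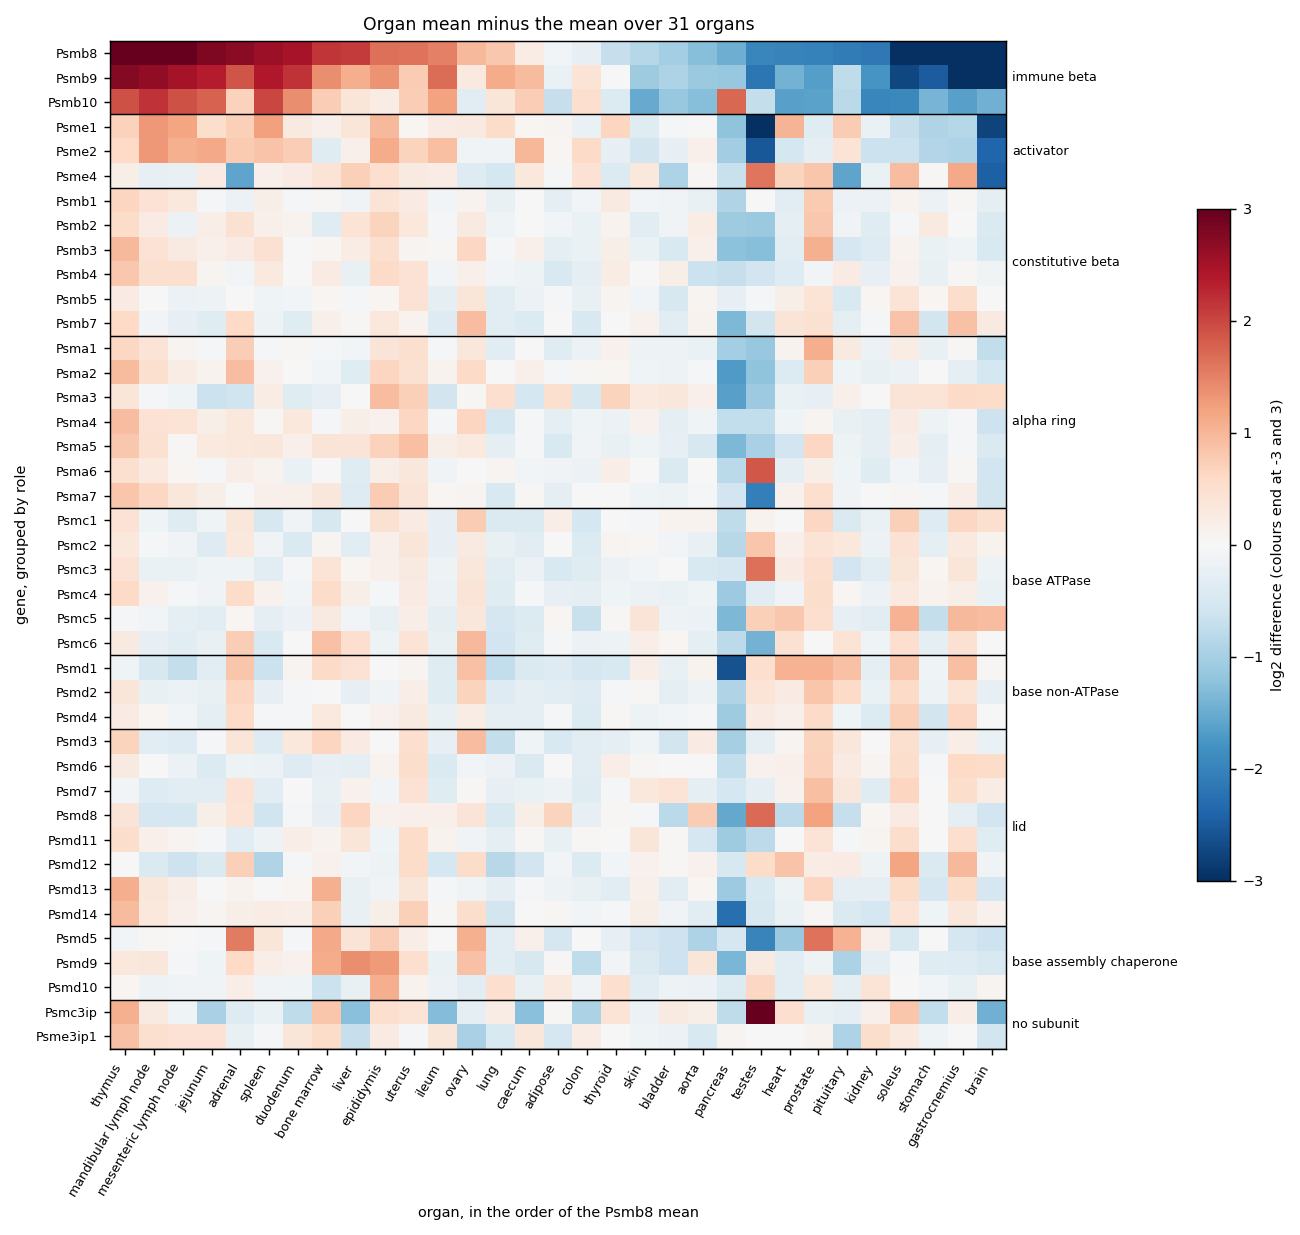
Difference of each organ mean from the gene's mean over 31 organs (log2, colour scale ending at -3 and 3) for 41 proteasome genes in rows, grouped by role, and organs in columns. Psmb8 and Psmb9 are low in the brain and muscles and high in the lymphoid organs and small intestine, Psmc3ip and Psme1 reach 5.25 and -3.54 in the testes, and the pancreas is low for most rows.

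Of the 39 proteasome genes, 9 had their highest organ mean in the thymus, 8 in the prostate, 5 in the testes and 4 in ovaries. The pancreas had the lowest mean for 22 genes, the testes for 9 and the brain for 3. Such shares were not computed for all probesets, so these counts are not shown to be particular to proteasome genes. Probesets expressed in every organ also had negative median differences from the other organs, -0.56 in the pancreas and -0.52 in the testes.

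Psmb8, which encodes the inducible counterpart of Psmb5, was highest in the thymus (11.76) and mandibular lymph node (11.56), then in the mesenteric lymph node (11.26), jejunum (11.05), adrenal (10.96), spleen (10.84), duodenum (10.73), bone marrow (10.40) and liver (10.36). It lay at 9.07 in the lung and 8.02 in the colon, and below the threshold in the kidney (6.11), soleus (5.24), stomach (4.89), gastrocnemius (4.74) and brain (2.70). Psmb9, the counterpart of Psmb6, ran in nearly the same order, from 11.30 in the thymus and 11.21 in the mandibular lymph node to 5.34 in the gastrocnemius and 3.39 in the brain. Psmb10, the counterpart of Psmb7, was highest in the mandibular lymph node (10.44) and spleen (10.28), and it stayed above the threshold in the brain (6.85, arrays 6.42 to 7.29), where all 10 arrays put Psmb8 at 2.25 to 4.03 and Psmb9 at 2.84 to 3.87. Neighbouring organs in these orders mostly did not differ beyond their spread: the step between them was smaller than the larger of the SDs of their arrays in 27 of 30 steps for Psmb8, 29 for Psmb9 and 28 for Psmb10. The widest step for Psmb8 and Psmb9 was that from the gastrocnemius down to the brain (2.04 and 1.95), between values below the threshold.

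**Figure D2:**
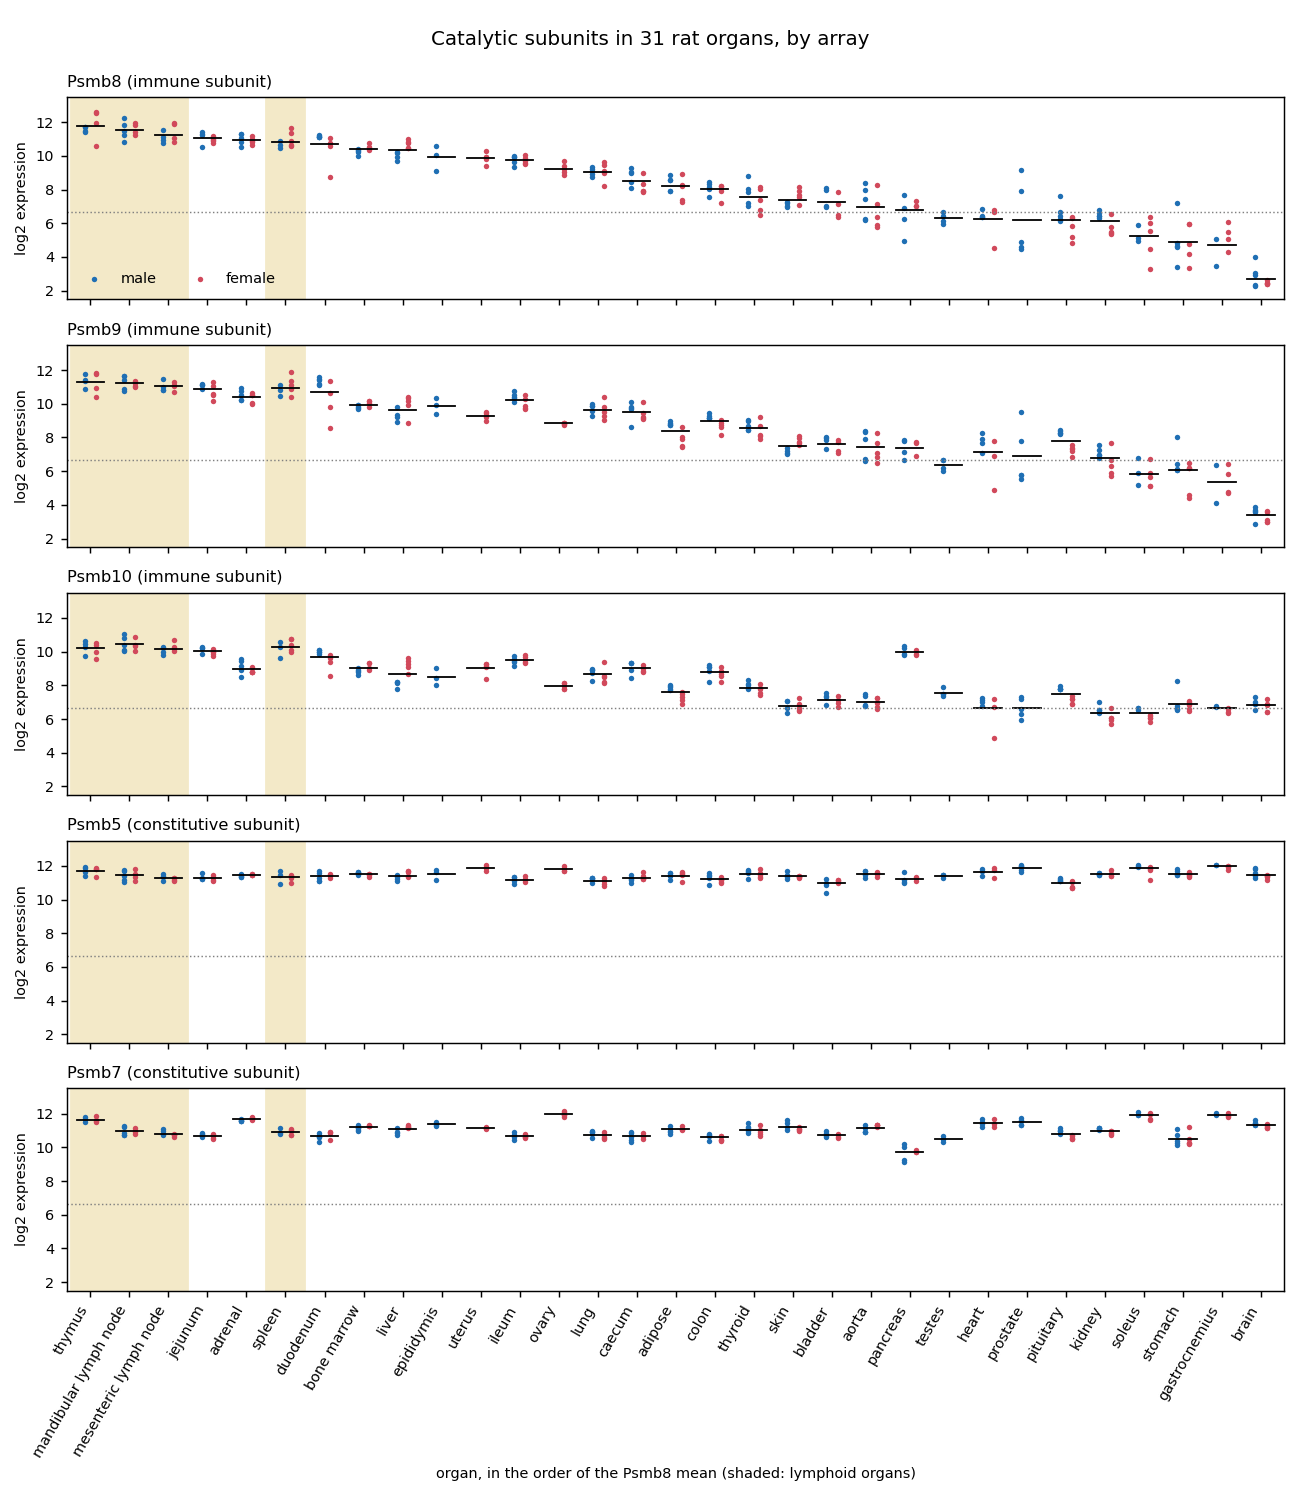
Log2 level on each array (points) with organ means (black lines) of the immune subunits Psmb8, Psmb9 and Psmb10 and the constitutive subunits Psmb5 and Psmb7 over 31 organs, the dotted line marking the expression threshold of 6.65. Psmb8 means run from 2.70 in the brain to 11.76 in the thymus, while all Psmb5 means lie between 10.98 and 11.98.

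Along the gut the immune subunits followed a gradient. Psmb8 was at 4.89 ± 1.20 (SD, n = 10) in the stomach, 10.73 ± 0.79 (n = 9) in the duodenum, 11.05 ± 0.29 (n = 9) in the jejunum, 9.76 ± 0.24 (n = 10) in the ileum, 8.48 ± 0.55 (n = 10) in the caecum and 8.02 ± 0.37 (n = 10) in the colon. Psmb9 went from 6.05 in the stomach to 10.89 in the jejunum and 8.96 in the colon, and Psmb10 from 6.87 to 10.04 and 8.77. The stomach was thus the one gut organ whose Psmb8 and Psmb9 means lay below the threshold, although single stomach arrays reached 7.22 for Psmb8 and 8.01 for Psmb9. The duodenum spread was set by 1 array, female 1, at 8.76 for Psmb8 when the other 8 lay at 10.56 to 11.27.

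Promoter sequence of the immune genes is shown because interferon-regulatory factors act at a motif with the letters GAAANNGAAA, the interferon-stimulated response element. Sequences were taken from RefSeq (build GRCr8), searched on both strands in windows from 250 bases before to 50 bases after each gene start. The motif stood in 1312 of 33469 windows (3.92%) and in 6 of the 37 proteasome genes that had a window, which were Psma4, Psmb3, Psmb8, Psmb10, Psmd7 and Psme2. Capitals mark the match, which in Psmb8 and Tap1 lies on the complementary strand, and each line is written along the strand of the gene.

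Psmb8, chr20:4657026-4657055, minus strand: cctcctcttggtgctgtggcTTTCGCTTTC

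Psmb10, chr19:50743293-50743385, minus strand: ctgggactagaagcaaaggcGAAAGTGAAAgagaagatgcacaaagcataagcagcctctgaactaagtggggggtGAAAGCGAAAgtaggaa

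Psme2, chr15:33052783-33052824, minus strand: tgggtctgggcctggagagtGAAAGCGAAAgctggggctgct

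Tap1, chr20:4668643-4668684, minus strand: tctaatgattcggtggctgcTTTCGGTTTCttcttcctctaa

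Psmb10 held 2 matches, starting 73 and 17 bases before its gene start, and the match of Psme2 started 53 bases and that of Psmb8 4 bases before. The longest run common to the Psmb8, Psmb10 and Psme2 windows, read on either strand, was GTGAAAGCGAAAG, 13 bases long, which occurred in 5 of the 33469 windows (0.0149%), those of Psmb8, Psmb10, Psme2, Tap2 and Ythdc2. Since the run was drawn from the windows of Psmb8, Psmb10 and Psme2, its presence there was fixed in advance. The Psmb9 window held no match. The Tap1 match, however, lies between the starts of Tap1 and Psmb9, farther before the Psmb9 start than the Psmb9 window reaches. The lack of a match thus holds for the Psmb9 window and not for the whole stretch between these genes. For comparison, 100 bases before the Psmb9 start are given.

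Psmb9, chr20:4668900-4668999, plus strand: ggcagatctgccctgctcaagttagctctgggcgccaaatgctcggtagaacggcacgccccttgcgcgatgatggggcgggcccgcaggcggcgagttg

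The genes Tap2, Psmb8, Tap1 and Psmb9 follow one another on chromosome 20 within the MHC, and Tap1, a transporter that carries peptides into the endoplasmic reticulum, and Psmb9 run in opposite directions from a shared promoter region. The other motifs searched were no more than descriptive: the letters TTCNNNGAA of the gamma-activated site stood in 4 member windows against 8.87% of all, TGACNNNGC of the antioxidant response element in 7 against 12.1%, and CCAAT in 20 against 37.5%. These matches describe letters in a window and no site of binding.

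Lymphoid organs (spleen, thymus, mandibular and mesenteric lymph node, 33 arrays) were compared with the other 27 organs (223 arrays) to ask how far the immune subunits mark lymphoid tissue. Psmb8 lay at 10.45, 11.39 and 12.60 (lowest, median and highest array) in lymphoid organs and at 2.25, 7.94 and 11.45 in the others. The groups overlapped in 36 of the other arrays, all from the adrenal, bone marrow, duodenum, epididymis, jejunum and liver. Psmb9 lay at 10.39, 11.09 and 11.88 against 2.84, 8.45 and 11.58, with 26 arrays overlapping, and Psmb10 at 9.55, 10.30 and 11.04 against 4.86, 7.93 and 10.33, with 29 overlapping. Psmb5, by contrast, had nearly the same range on both sides, 10.92 to 11.94 against 10.39 to 12.06. 

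Differences were called where the adjusted p (limma, Benjamini-Hochberg over all 31042 probesets) was under 0.05, the change over 2-fold and a mean above the threshold on at least 1 side. In lymphoid organs 5 of 55 member probesets (9.09%) were called, where 12.9% of all probesets were called (8.6% higher), so members as a whole were not called more often than the array. All 5 were higher, and they were the 3 immune subunits and both PA28 genes. Psmb8 rose by 3.55 ± 0.13 (log2 difference of means ± SE, 11.7-fold, adjusted p = 5.87e-69). Psmb9 rose by 2.96 ± 0.11 (7.80-fold, adjusted p = 5.91e-69) and Psmb10 by 2.29 ± 0.06 (4.90-fold, adjusted p = 1.16e-86). The SEs and p-values of this and the other organ comparisons come from the spread of arrays within groups of organ and sex. They leave out the spread between organs, whose means had an SD of 2.37 for Psmb8. Whether lymphoid organs as a class differ beyond that spread was not tested. In each of the 10 rats, as numbered in the sample titles, the 3 genes were higher in its lymphoid than in its other organs, by 2.66 to 4.25 for Psmb8, 2.23 to 3.41 for Psmb9 and 1.74 to 2.71 for Psmb10. The organs with an array were not the same in every rat, so these ranges also include differences in the organs averaged.

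The PA28 genes changed less. Psme1 lay at 12.04 to 13.20 in lymphoid arrays (median 12.76) and at 7.76 to 12.85 in the others (median 11.69), a rise of 1.26 ± 0.04 (adjusted p = 9.30e-79). Psme2 lay at 10.92 to 12.24 (median 11.47) against 7.48 to 11.98 (median 10.52), a rise of 1.10 ± 0.05 (adjusted p = 3.10e-54), and it was no longer called, at 0.83, when bone marrow was counted as lymphoid. Both were higher in lymphoid organs in 10 of 10 rats.

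The standard barrel and cap moved little in this comparison. Psmb5 differed by -0.02 (adjusted p = 0.506) and Psmb7 by 0.04 (adjusted p = 0.328). Of the 7 alpha-ring genes, 6 were higher with adjusted p under 0.05 but by at most 0.56, and of the 6 constitutive beta genes 4 were, led by Psmb3 (0.61) and Psmb4 (0.59), structural beta subunits. Base and lid genes moved both ways, down to -0.57 for Psmd1 and -0.56 for Psmd12. At any size, 43.6% of member probesets were higher and 34.5% lower with adjusted p under 0.05, against 32.9% and 56.1% of all probesets, and the median difference was 0.04 for members, -0.08 for all probesets and 0.15 for those expressed in every organ.

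**Figure D3:**
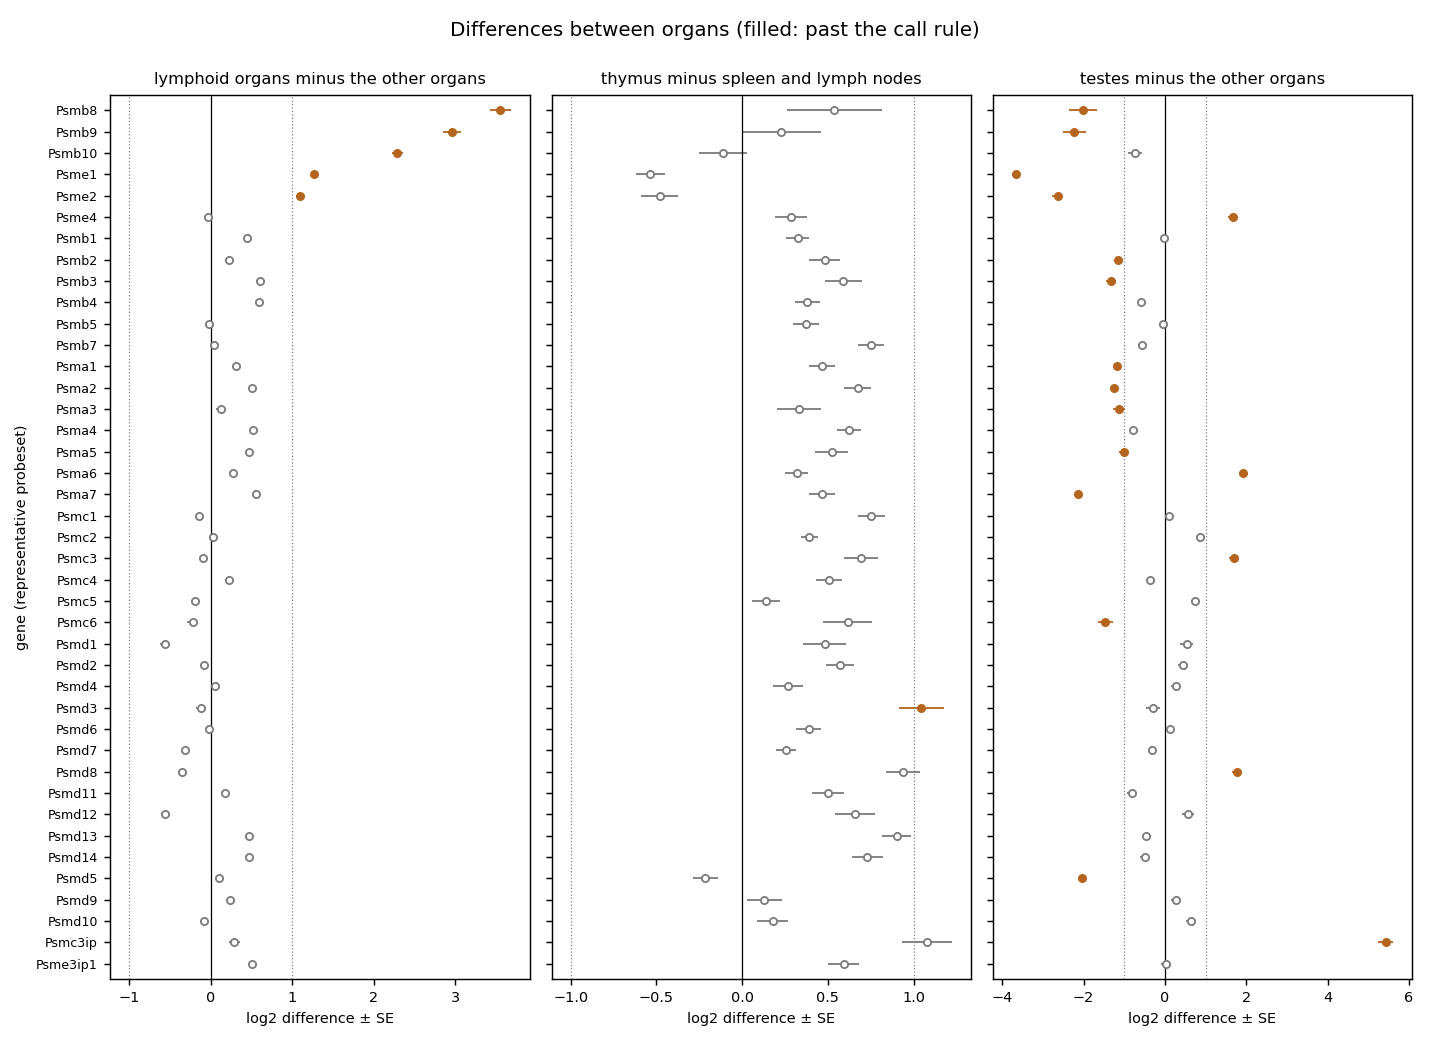
Log2 difference of means with SE (bars) for each proteasome gene, grouped by role, in 3 comparisons: lymphoid against other organs, thymus against spleen and lymph nodes, and testes against the other organs, with filled points for called differences. In the first panel the filled points are the immune subunits and PA28 (1.10 to 3.55), and in the third panel the lowest point is Psme1 at -3.66, while Psmc3ip, Psmb8 and Psmb9 are drawn against a mean below the expression threshold on 1 side.

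The balance of immune over constitutive subunits was summarised as the mean of Psmb8, Psmb9 and Psmb10 minus the mean of Psmb5 and Psmb7, set relative to its mean over 31 organs. It was 2.93 higher in lymphoid than in other organs (SD 0.34 over 10 rats, whose sets of measured organs differed, range 2.31 to 3.37). By organ it was highest in the mandibular (2.77 ± 0.20, SD of 9 arrays) and mesenteric lymph node (2.68 ± 0.34, 8 arrays), with the jejunum (2.56 ± 0.20, 9 arrays) next, before the spleen (2.47) and thymus (2.30). The duodenum (2.23), ileum (1.79), adrenal (1.47), bone marrow (1.32) and liver (1.19) followed, and the soleus (-3.19), gastrocnemius (-3.50) and brain (-4.19) closed the order. In these last 3 organs Psmb8 and Psmb9 lay below the threshold, so that their values and order there are set in part by background. Between neighbouring organs at the top the gaps were smaller than the SDs.

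The order of organs by this balance was not that of leukocyte genes. The mean of 16 measured leukocyte genes, such as Ptprc and Cd3 genes, was 10.76 to 11.35 in the lymphoid organs, 8.61 in bone marrow, 7.59 in the lung, 7.05 in the jejunum, 5.90 in the ileum, 5.48 in the duodenum, 5.06 in the liver and 4.91 in the adrenal, against 4.66 in the brain. The adrenal was thus ranked 24 of 31 organs for leukocyte genes and 8 for the balance. Of the 16 leukocyte genes, only 2 lay above the threshold in the adrenal, 3 in the brain and 6 in the liver. Low leukocyte means and their order are therefore set in part by background. Its mean of 21 interferon-induced genes was 5.97, beside 6.50 in the jejunum, 8.70 in the spleen and 4.25 in the brain. The part of leukocytes in the levels of the immune subunits was not tested.

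**Figure D4:**
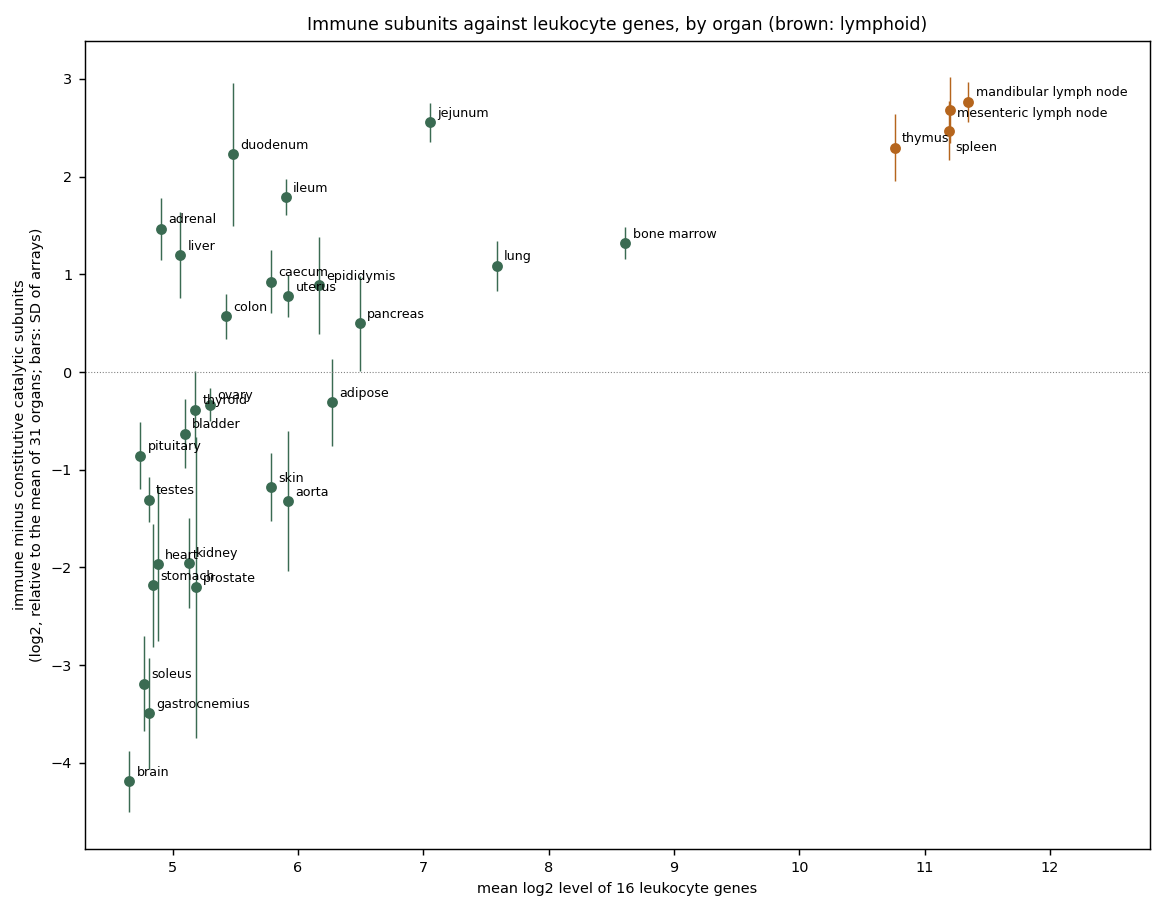
Balance of immune over constitutive catalytic subunits by organ (vertical axis, log2 relative to the mean of 31 organs, bars SD of arrays) against the mean log2 level of 16 leukocyte genes (horizontal axis), lymphoid organs in brown. The jejunum, duodenum, adrenal and liver lie at 1.19 to 2.56 on the vertical axis with leukocyte means of 4.91 to 7.05, while the lymphoid organs lie at 2.30 to 2.77 with leukocyte means of 10.76 to 11.35. Low leukocyte means are set in part by background, with 2 of the 16 genes above the threshold in the adrenal and 6 in the liver.

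Genes that work with the immunoproteasome were followed in the same comparison. Of 11 measured genes of antigen processing 5 were called higher and none lower (Tap1 2.95, Tap2 2.99, Tapbp 1.25, and the class I genes RT1-CE5 2.15 and RT1-S3 2.50), with a list median of 1.25. Tap1 lay below the threshold in most non-lymphoid organs, from the epididymis (6.51) down to the brain (2.53). Its difference is thus measured in part from background. Of 21 interferon-induced genes and their factors, 11 were called higher and none lower, led by the antiviral Mx1 (5.11) and the factor Irf8 (4.45), with a median of 1.37. Of the 16 leukocyte genes 15 were called higher, with a median of 5.88. Proteasome assembly factors and ubiquitin cofactors did not follow, with 1 of 20 called, Nfe2l1 (-1.10), a transcription factor of proteasome genes, and a list median of -0.01.

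Across organs the immune subunits followed one another more closely than they followed the constitutive subunits. As a description over 31 organ means, which come from the same 10 rats, Psmb8 and Psmb9 correlated at r = 0.978 (0.972 over the 27 non-lymphoid organs), Psmb9 and Psmb10 at 0.851 (0.795), and Psme1 and Psme2 at 0.862. Psmb8 against Psmb5 gave -0.169 and Psmb10 against Psmb7 gave -0.369. The median r was 0.30 between immune and constitutive beta genes, -0.13 between immune and base or lid genes and 0.48 within base and lid. Among 15746 probesets with 1 symbol and a mean above the threshold in at least 1 organ, those most like Psmb9 were Psmb8, Tap1 (0.920), Parp14 (0.893), Nmi (0.887), Trim30d (0.886) and RT1-CE12 (0.882). Those most like Psmb5 were Psmb7 (0.735), the base ATPase Psmc1 (0.718), Eloc (0.713), Gadd45gip1 (0.711), Mrpl33 (0.702), Gars1 (0.691) and Nutf2 (0.677).

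The thymus was then compared with the spleen and lymph nodes, lymphoid organs without thymic epithelium. Psmd3, a lid scaffold, was the 1 member called (1.82% of members against 10.2% of all probesets), at 8.42, 9.03 and 9.83 (lowest, median and highest of 8 thymus arrays). Its values were 7.50 to 8.29 in the spleen, 7.40 to 8.36 in the mandibular and 7.65 to 8.21 in the mesenteric lymph node, so that no array of these reached the thymus. Its rise of 1.05 ± 0.13 (adjusted p = 7.21e-13) was just under 2-fold without female 1 (0.99), without male 3 (0.94) and in females alone (1.00).

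Smaller differences were shared by most roles. With adjusted p under 0.05 at any size, 38 of 55 member probesets (69.1%) were higher in the thymus, where 25.6% of all probesets were, and 3 (5.45%) were lower, where 18.6% were. Among probesets expressed in every organ the shares were 82.5% of 40 members against 46.2%. All 7 alpha-ring, 6 constitutive beta, 8 lid and 3 non-ATPase base genes were among those higher, with 5 of the 6 ATPases. The median difference was 0.41 over member probesets, 0.01 over all probesets and 0.18 over those expressed in every organ. Psme1 (-0.53) and Psme2 (-0.48) were lower in the thymus, as was the assembly chaperone Psmd5 (-0.21). Psmb8 (0.54, adjusted p = 0.113), Psmb9 (0.23, adjusted p = 0.543) and Psmb10 (-0.11, adjusted p = 0.679) did not pass the test. In the same comparison 9 of the 21 interferon-induced genes were called lower in the thymus and 1 higher, and of the 16 leukocyte genes 6 were called higher and 4 lower. Their part in the differences was not tested.

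The testes, where germ cells are known to use variant proteasomes with Psme4 as activator, stood apart in both directions. Of 55 member probesets 21 (38.2%) were called, 6 higher and 15 lower, against 26.1% of all probesets (12.6% higher, 13.6% lower). Among probesets expressed in every organ the comparison turned, with 42.5% of members called against 51.5%. The median difference was -0.30 over member probesets, -0.10 over all probesets and -0.52 over those expressed in every organ. Falls of members in the testes thus stand beside a general fall of widely expressed probesets. The testes had 4 arrays. All 8 measured genes of a male germ cell list were called higher there, with a median difference of 11.16.

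Psma6, an alpha-ring subunit, was at 14.45, 14.52, 14.24 and 14.52 on the testis arrays against a mean of 12.51 over the other organs, a rise of 1.92 ± 0.08 (adjusted p = 2.29e-57). Psma7, another alpha-ring subunit, went the other way, at 9.23, 9.59, 9.12 and 9.11 against 11.39, and fell by 2.13 ± 0.09 (adjusted p = 6.03e-58). The alpha ring was thus split, with 1 gene called higher and 5 lower (Psma1, Psma2, Psma3 and Psma5 by 1.01 to 1.25, besides Psma7). PA28 was low: Psme1 was at 8.05, 8.12, 7.76 and 8.31 against 11.72, a fall of 3.66 ± 0.11 (12.6-fold, adjusted p = 5.54e-85), and Psme2 fell by 2.64 ± 0.13 to 8.01. PA200 was high, with 2 probesets of Psme4 rising by 1.67 and 1.89, while the third differed by -0.44. The lid gene Psmd8 rose by 1.76 and the base ATPase Psmc3 by 1.70, and the base ATPase Psmc6 fell by 1.47 and 1.98 on its 2 called probesets. The assembly chaperone Psmd5 fell by 2.04, and among the constitutive beta genes Psmb2 fell by 1.15 and Psmb3 by 1.32.

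The immune subunits Psmb8 (6.30) and Psmb9 (6.39) were called lower in the testes but lay under the threshold, so that their levels elsewhere were at least 3.19-fold and 3.91-fold higher, with the testis value set at the threshold. Psmb10 was at 7.57 and differed by -0.73 (adjusted p = 7.19e-05), less than 2-fold, and Psmb5 by -0.05 (adjusted p = 0.691). The strongest rise among the member probesets was that of Psmc3ip, which serves meiotic recombination and is no subunit: it was at 10.54 in the testes and under the threshold over the other organs, a difference of at least 14.8-fold. Beside the members, 5 of 20 assembly factors and cofactors were called higher (Psmf1, the inhibitor PI31, by 3.65, and the deubiquitinase Uchl5 by 2.52) and 6 lower (the ubiquitin-activating enzyme Uba1 by -1.96). Of all probesets 12.6% were called higher and 13.6% lower in the testes, and of those expressed in every organ 51.5% were called in either direction. Of the 11 antigen-processing genes, 5 were called lower and none higher, among them B2m, the light chain of class I molecules (-2.46).

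Psme4 also varied outside the testes. On its representative probeset the gastrocnemius (11.01) and soleus (10.81) came next to the testes (11.49), and the brain was lowest (7.42, arrays 7.03 to 7.79). A second probeset followed this order of organs (r = 0.949), but the third did not (r = 0.413) and was highest in the heart (10.47), so that values of Psme4 depend on the probeset.

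In comparisons of each organ with the 30 others, 165 of 1705 pairs of member probeset and organ (9.68%) were called, where 12% of all pairs were. The pancreas, with 7 arrays, gave the most calls, 27 of 55 (49.1% against 12.5% of all probesets), 26 of them lower (47.3% against 8.88%). Among probesets expressed in every organ, 52.5% of members were called lower in the pancreas against 25.4%, and the median differences were -0.93 for members, -0.56 for probesets expressed in every organ and -0.01 for all. Psmd1, a base scaffold, ranged from 4.53 to 8.01 on pancreas arrays (median 6.51), with a mean below the threshold, so that its level elsewhere was at least 4.98-fold higher. Psmd14, the deubiquitinase of the lid, ranged from 7.35 to 8.40 and was lower by 2.33. Psma2 differed by -1.77. The study's methods name pancreas RNA as prone to degradation, and state that this organ was given priority in freezing. They also state that samples of low RNA integrity were processed again and that some arrays were dropped for signs of degraded RNA. The part of degradation in these values was not tested.

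Psmb10 was the only member called higher in the pancreas. Its 7 arrays lay at 9.81 to 10.33, the range of lymphoid organs, and its mean was higher than elsewhere by 1.78 ± 0.13 (adjusted p = 5.15e-29), while Psmb8 (6.79) and Psmb9 (7.40) were called lower there by 1.52 and 1.18. On chromosome 19 Psmb10 lies next to Ctrl, a gene of a chymotrypsin-like digestive protease, which was at 14.55 to 15.05 on pancreas arrays and at 7.19 to 11.40 in the duodenum. In the jejunum Ctrl was at 2.48 and Psmb10 at 10.04. Whether transcripts of Ctrl reach the Psmb10 probeset was not tested.

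The 5 genes called higher in lymphoid organs were called lower in the brain. Its 7 called members, all lower (12.7% of members, 8.35% of all probesets called lower), were Psmb8, Psmb9, Psmb10 (-1.48), Psme1 (-2.86), Psme2 (-2.47) and 2 probesets of Psme4 (-2.54 and -2.24). With the brain set at the threshold, Psmb8 was at least 3.47-fold and Psmb9 at least 4.19-fold higher over the other organs. Psmb5 in the brain differed by 0.001 (adjusted p = 0.984). The gastrocnemius, soleus and heart had Psmb8 and Psmb10 below the threshold and called lower, with Psmb10 elsewhere at least 3.21-fold, 3.23-fold and 3.21-fold higher. The kidney, too, had Psmb8 and Psmb10 below the threshold and called lower, with Psmb10 elsewhere at least 3.23-fold higher. The skeletal muscles had Psmb7 higher by 0.92 and 0.89, less than 2-fold. In the heart Psme1 was called higher (1.06) while Psme2, its partner, differed by -0.54.

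Among secretory and endocrine organs the adrenal had 4 members called higher (7.27%, where 6.82% of all probesets were), with Psmb8 higher by 2.79 ± 0.22 (adjusted p = 1.19e-26) and Psmb9 by 1.95, and the liver had Psmb8 higher by 2.17 and Psmb9 by 1.12. The prostate had 7 members called higher (12.7%, where 8.85% of all probesets were: Psmd5 1.69, Psmd7 1.51, Psmd8 1.26, Psma1 1.13, Psme4 1.12, Psmb3 1.10 and Psmd1 1.07), with the 3 immune subunits lower. The Psmd7 and Psme4 values were those of further probesets, and the representative probesets of both genes were not called. Prostate arrays differed widely in Psmb8, at 9.16, 4.61, 4.91, 7.94 and 4.50 in males 1 to 5, and the mean of interferon-induced genes was 9.37, 5.35, 6.14, 8.07 and 5.60 on the same arrays, so that the same rats were high in both. In the thymus 6 members were called higher (10.9%, where 11.9% of all probesets were), the 3 immune subunits and Psmd14 (1.14), Psmd13 (1.12) and Psmb3 (1.01). For Psmd14 this was again a further probeset, and its representative probeset was not called. No member was called in adipose tissue, colon or thyroid, where 8.64%, 8.49% and 7.89% of all probesets were (limma, adjusted p under 0.05 and 2-fold).

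Males and females were compared in each of the 26 somatic tissues, with a gene called sexually dimorphically expressed (SDE) by the same criteria. Only 2 of 1430 pairs of member probeset and tissue (0.140%) were SDE, where 0.312% of all pairs were, and both were immune subunits. In the liver Psmb10 was at 8.22, 8.12, 7.81 and 8.18 in males and at 9.60, 9.46, 9.29, 8.66 and 9.12 in females, with no overlap. It was lower in males by 1.14 ± 0.19 (adjusted p = 0.0246), where 0.825% of probesets were SDE in the liver. Leaving out 1 rat at a time gave differences of -1.28 to -1.05, and the call was lost without 8 of the 9 rats that had a liver array, female 4 being the exception. Psmb8 and Psmb9 did not pass the test in the liver. Leukocyte means there were 4.76 to 4.98 in males and 4.98 to 5.63 in females, and their part in the difference was not tested.

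In the pituitary Psmb9 was at 8.41, 8.42, 8.26, 8.23 and 8.29 in males and at 7.29, 7.22, 7.56, 7.38 and 6.85 in females, again with no overlap. It was higher in males by 1.06 ± 0.12 (adjusted p = 0.00138, where 1.17% of probesets were SDE), and the difference was 0.96, under 2-fold, without female 5. Smaller differences ran in the same direction. With adjusted p under 0.05 at any size, 19 of 55 member probesets (34.5%) were higher in males, where 4.25% of all probesets and 10.1% of those expressed in every organ were, and none was lower, where 3% were. Among them were Psmb10 (0.71, adjusted p = 0.00252), Psme2 (0.86), Psme1 (0.51), Psmd14 (0.64), Psmd12 (0.60) and Psmb3 (0.60). The median male minus female difference was 0.27 over members, -0.01 over all probesets and 0.06 over those expressed in every organ. The mean of the 21 interferon-induced genes was 5.26 to 5.68 in males and 4.75 to 5.17 in females, with 4 of them higher in males at adjusted p under 0.05, and leukocyte means were 4.74 to 4.99 and 4.56 to 4.81, and their part in the difference was not tested.

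**Figure D5:**
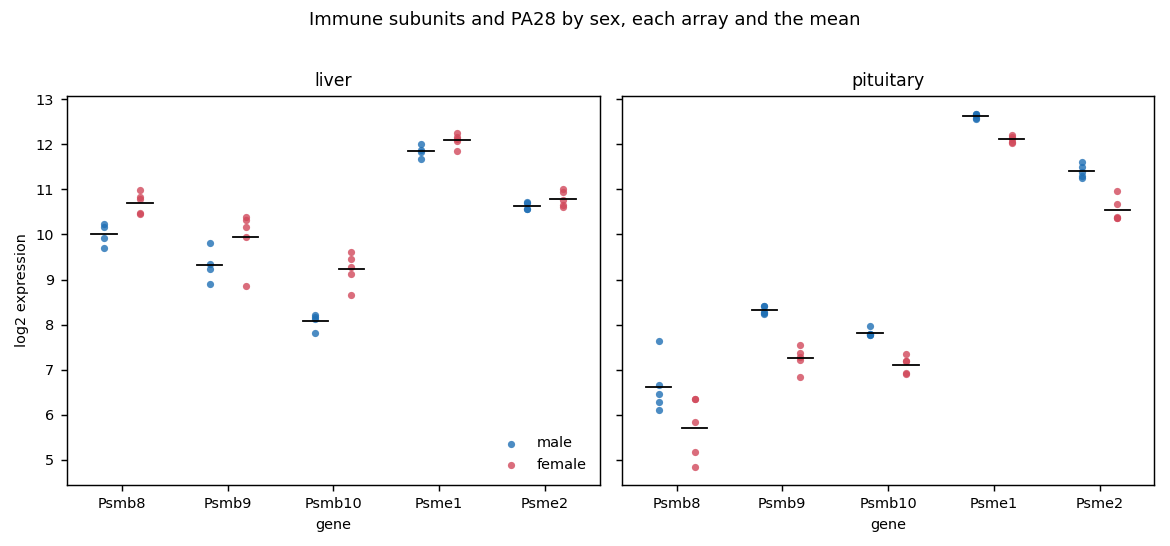
Log2 level on each array of males and females (points, with means) for Psmb8, Psmb9, Psmb10, Psme1 and Psme2 in the liver and pituitary. Psmb10 in the liver (males 7.81 to 8.22, females 8.66 to 9.60) and Psmb9 in the pituitary (males 8.23 to 8.42, females 6.85 to 7.56) do not overlap between the sexes.

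Elsewhere sex differences of these genes did not pass the test except in the kidney, for Psme2, although some were as wide as the called ones: Psmb9 was higher in males by 1.26 in the duodenum (adjusted p = 0.178) and by 1.20 in the heart (adjusted p = 0.815). For Psmb9, duodenum female 1 was at 8.56 and the other females at 9.83 to 11.33. Heart female 3 was at 4.88 and the other females at 7.82 and 6.90. Heart male 5, an array at odds with its labelled sex, was the highest of the males at 8.27. The duodenum difference was called in 1 limma fit over all groups (adjusted p = 0.0128). Male means were above female means for Psmb10 in 21 of 26 tissues, for Psme1 in 20, for Psmb9 in 19, for Psme2 in 18 and for Psmb8 in 16. The tissues came from the same rats and the genes varied together, so these counts are not independent. Their share over all probesets was not computed. With adjusted p under 0.05 (limma, any size), Psmb10 and Psme2 differed in 2 tissues each, Psmb9 and Psme1 in 1 and Psmb8 in 0. Between the liver and the pituitary, tissues paired after their values were seen, the male minus female difference itself differed with adjusted p under 0.05 (limma, any size) for 11 of 55 member probesets (20%), where 6.99% of all probesets did, and all 11 were lower in the liver. They comprised Psmb9, Psmb10 and PA28 as well as standard subunits such as Psmc2 and Psmb7. The rise of the immune subunits in lymphoid organs did not differ detectably by sex: no member was called for the interaction of sex and organ class (limma), where 3 of 31042 probesets (0.00966%) were, and none had an unadjusted p under 0.05, the lowest being 0.0508 for Psmb10.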

How the data were processed

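RNA of 31 rat organs was hybridised to RAE230_2 arrays, 1 organ of 1 rat per array. The deposited log2 values are GCRMA intensities the authors computed over all arrays (version not given in the sources used here), and they were used unchanged. Probe names came from the platform annotation (20826 probesets with 1 symbol, 436 with several, 9780 with none). Array medians were 3.86 to 4.45, and the number of arrays limits the precision.

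limma 3.58.1 (R 4.3.3) was fitted to 57 groups of organ and sex on all 31042 probesets, with Benjamini-Hochberg adjustment. Organ contrasts averaged groups equally, and their SEs measure the spread of arrays within groups and not that between organs. For sex, each tissue was fitted alone. Calls needed adjusted p under 0.05, over 2-fold and a mean above 6.65, the study's expression threshold. Rules were tested on simulated data. Genes with several probesets were represented by the one of highest mean, and neighbouring patterns were ranked by Pearson's r over organ means. Named genes were the catalytic and activator genes, Psmc3ip, up to 10 called members per comparison by size, every SDE member, the 2 widest and 2 narrowest ranges, and the 5 genes outside the members most like Psmb9 and Psmb5. Other genes are named as examples of a role or list. The gene lists were of assembly factors and cofactors, antigen processing, interferon-induced genes, leukocytes, thymus, erythroid cells and male germ cells. Members and lists were chosen with earlier results of these data known.

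Arrays with the same sex and number in their titles were taken as 1 rat, which pairs organs but not sexes. This numbering is uncertain for the testes, whose numbers differ in a supplementary list, and for the adrenal, bone marrow, pituitary and ovary, which carry a second numbering. Deviations from group means correlated at a median r of 0.087 within rats and -0.023 between rats, higher within rats in 386 of 459 pairs of organs and over 0.1 in 212. Alternatives left out single rats, organs or the fold, added the animal as a block, or changed normalisation, filter and test.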

Additional observations from a re-analysis of the deposited data

Results flagged for a closer look

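Single arrays stood far from the others of their organ and sex in 11 of 153 groups tested for Psmb8, Psmb9 and Psmb10, where chance flags about 1 in 20 groups. For Psmb8 these were colon female 4 (7.23, others 7.95 to 8.20) and heart male 5 (6.86, others 6.36 to 6.42), the latter an array whose Xist and Eif2s3y values were at odds with its sex. For Psmb9 they were liver female 4 (8.85, others 9.95 to 10.39) and stomach male 1 (8.01, others 6.04 to 6.42). For Psmb10 stomach male 1 was flagged as well (8.27, others 6.52 to 6.79). The remaining Psmb10 arrays were adrenal female 2 (9.08), jejunum male 4 (9.85), kidney male 3 (6.99), lung male 5 (8.24), pituitary male 1 (7.97) and uterus female 1 (8.36).

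The male minus female difference was not the same in the liver and the pituitary, a pair of tissues compared after their values were seen. The difference in the liver minus that in the pituitary was -1.85 for Psmb10 (limma, adjusted p = 1.52e-06), -1.67 for Psmb9 (adjusted p = 0.0276), -0.76 for Psme1 (adjusted p = 0.00347) and -1.02 for Psme2 (adjusted p = 0.00151). Standard subunits passed the same test, among them Psmc2 (-0.68), Psmb7 (-0.70), Psmc5 (-0.73), Psmb3 (-0.86) and Psmb5 (-0.60). Since the pair of tissues was chosen for its difference, these p-values are no independent support. For Psmb8 it was -1.62 and did not pass the test (adjusted p = 0.109).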

How the results depend on the processing

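Of the 18 gene differences recomputed under the alternatives, which were those called in the lymphoid and thymus comparisons and between the sexes and the 10 testis genes named most fully, none reversed. The lymphoid count of 5 calls was 8 at 1.5-fold, and the balance of immune over constitutive subunits was 2.58 with all alpha and constitutive beta genes as the constitutive side. The thymus count of 1 was 0 after quantile normalisation and in females alone, 2 in males alone, 3 with no expression threshold, 15 at 1.5-fold, and 0 to 2 without single rats (0 without female 1 or male 3, 2 without male 4). The testes count ran from 19 to 28. The count over each organ was 363 at 1.5-fold and 132 without the pancreas, a setting chosen after seeing the data. The SDE count of 2 was 1 by the methods' t-test and at adjusted p under 0.01, 6 in 1 fit over all groups, 7 at 1.5-fold, and 1 to 2 without single rats. The cause of these shifts was not tested, beyond the looser or stricter thresholds themselves. Psmb10 in the liver was called in 9 of 20 alternatives (adjusted p 7.51e-05 to 0.0674) and Psmb9 in the pituitary in 19 of 20 (0.000572 to 0.0456).

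With the replicate block, organ calls were 5, 1 and 21 in the lymphoid, thymus and testes comparisons and 163 over each organ. Between sexes the shared number pairs different rats, and the block left 1 SDE call, with Psmb10 in the liver at -1.08 and no longer called.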

Other observations

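Some organs varied between rats in the immune subunits together with other lists. In the aorta, males 1 and 2 and female 1 had leukocyte means of 8.14 to 9.41 and Psmb8 at 7.95, 8.37 and 8.28. In the prostate the leukocyte means of males 1 to 5 were 6.62, 4.69, 4.54, 5.57 and 4.50. Heart female 3 was low in all 3 immune subunits, with Psmb8 at 4.53, Psmb9 at 4.88 and Psmb10 at 4.86.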
